A study of Caenorhabditis elegans with 78 samples.

Results

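Dimethylation of histone H3 at lysine 36 (H3K36me2) was mapped by ChIP sequencing in whole young adult *C. elegans*, and the peaks in the central part of chromosomes II, III and V are described here. A peak counted as a centre peak when its midpoint lay between 4.88 and 12.02 Mb on chromosome II, between 3.72 and 10.34 Mb on chromosome III, or between 5.90 and 16.55 Mb on chromosome V. The rest of each chromosome on either side, tips included, is called the arms. By this rule 14311 of the 93698 H3K36me2 peaks in the 8 lists were centre peaks (15.3%), and 35889 lay in the arms of the same 3 chromosomes. The other autosomes were not divided and entered only the fits across the genome.

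The 8 libraries came from wild-type N2 and from *jmjd-5(zr1234)* animals, each grown at 20°C or for 3 generations at 25°C, with 2 replicates per group. The zr1234 allele changes conserved amino acids of JMJD-5 within its JmjC domain, the catalytic domain of this family of histone demethylases. All 8 libraries were made with antibody ab9049. The study compared the strains at each temperature to ask how loss of *jmjd-5* affects this mark. Chromatin was taken from whole animals, so that soma and germline cannot be told apart, and fewer cells of a type and less mark per cell cannot be told apart either. The study calls its H3K36me2 ChIP replicates biological, without saying whether they came from separate cultures, and p-values measure the spread between these libraries.

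In *C. elegans* the H3K36 methyltransferases MES-4 and MET-1 place this methylation over genes, MES-4 mainly in the germline and early embryo, where it carries the mark of genes expressed in germ cells from one generation to the next. H3K36me3 lies over the bodies of transcribed genes, and H3K27me3, placed by the MES-2, MES-3 and MES-6 complex, marks repressed chromatin and is rich on the X chromosome. Worm autosomes recombine rarely in their centres and often in their arms. The centres hold more of the conserved, broadly expressed genes, and the arms more repeats and more silenced chromatin.

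Each list gives, per peak, a fold enrichment, which is a ratio of the signal to the control at the peak, and the −log10 of a p-value. The series holds a single input library for each strain and temperature, and the lists do not name the control used. If the replicates of a group shared an input, its error is common to both. That error then enters neither their spread nor the p-values of comparisons between groups. No listed peak has a −log10 p below 10, so that a missing peak is one under this limit and not an absence of the mark. The values are not scaled to the *Drosophila* chromatin that was added as a spike-in, and the read depth behind them is unknown. The lists therefore rank and place peaks within a library, and say nothing about the total amount of the mark. The lists held from 10643 to 12961 peaks, with 10643 to 11074 at 25°C and 12049 to 12961 at 20°C. Replicates were distinct libraries, since only 5 or 6 peaks per pair had equal bounds, and the centre peaks of 2 replicates shared between 0.727 and 0.764 of their joint length. Positions are those of the ce10 build. No genes or sequences are given for the peaks, because no sequence or annotation of that build was used.

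H3K36me2 peaks were sparser in the centres than in the arms in every library. The centres, 24.41 Mb in all, held 83.9 and 85.4 peaks per Mb in N2 at 20°C, 75.3 and 84.8 in *jmjd-5(zr1234)* at 20°C, 63.3 and 66.4 in N2 at 25°C, and 60.9 and 66.3 in *jmjd-5(zr1234)* at 25°C. The arms held between 165.0 and 186.8 peaks per Mb, so that the ranges were far apart. The mean was 73.3 ± 10.3 peaks per Mb in centres and 175 ± 10.2 in arms (SD, n = 8 libraries), a difference of −102 with an SD of only 1.44 (exact two-sided sign-flip permutation test over 8 libraries, p = 0.0078, the smallest it can give, adjusted p = 0.0094 over 6 comparisons). For scale, the X chromosome, on which H3K36me2 is known to be scarce, held 11.3 to 27.5 peaks per Mb. Peaks covered 3.40 ± 0.43% of the centres and 10.2 ± 0.88% of the arms (SD, n = 8).

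The 3 chromosomes differed in density but each had the sparser centre in 8 of 8 libraries. Chromosome III had the densest centre, with a mean of 117 peaks per Mb (range 95.2 to 138) against 292 in its arms. Chromosome II had 79.6 (67.6 to 92.4) against 167, and chromosome V 42.1 (35.1 to 50.6) against 101. The ratio of centre to arm density was 0.48 ± 0.035 on chromosome II, 0.40 ± 0.038 on III and 0.42 ± 0.034 on V (SD, n = 8). The 2 arms of a chromosome were not alike, and on chromosome II the left arm had 115 peaks per Mb and the right arm 245, yet even the sparser arm of each chromosome exceeded the mean of its centre.

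**Figure D1:**
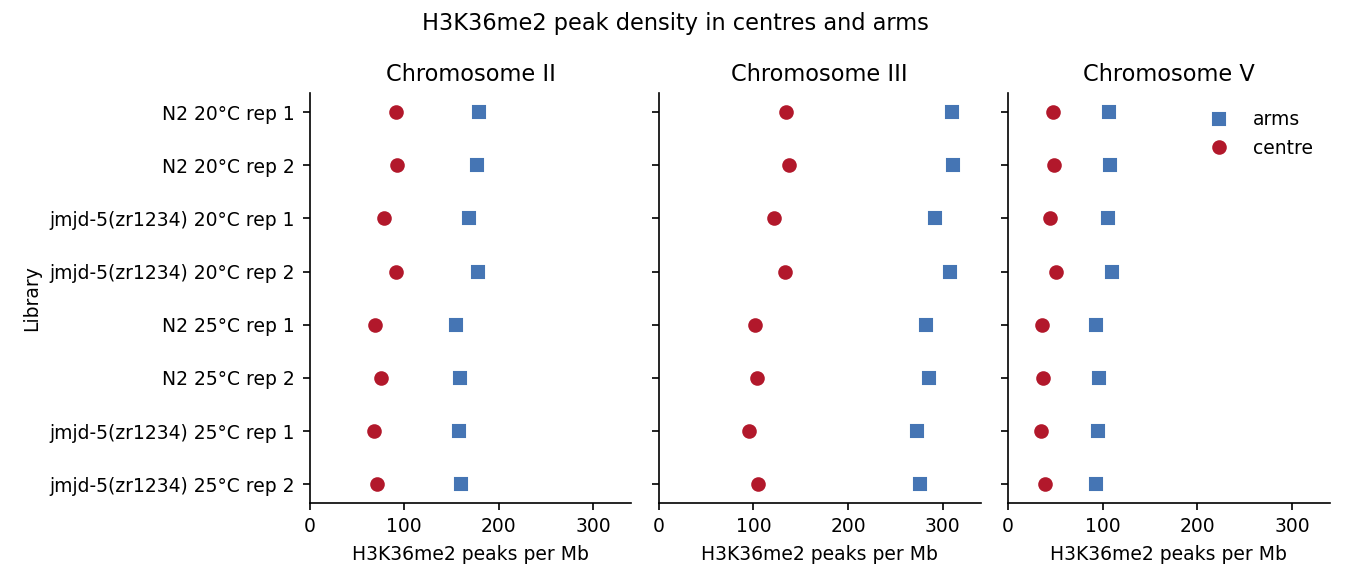
H3K36me2 peaks per Mb (x axis) in the centre (circles) and arms (squares) of chromosomes II, III and V for each of the 8 libraries (y axis). The circle lies left of the square in every library on every chromosome, with mean densities of 117 against 292 on chromosome III.

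Density fell across the bounds. Over the 6 bounds, density was 167 ± 16.6 peaks per Mb in the last 0.5 Mb of the arms and 95.0 ± 14.1 in the first 0.5 Mb of the centres (SD, n = 8 libraries). It was between 175 and 225 in the windows from 0.5 to 2.5 Mb outside the bounds, and between 77.0 and 84.8 in those from 0.5 to 2.5 Mb inside. The windows farthest from the bounds, from 2.5 to 3 Mb, were lower than their neighbours on both sides, with 145 outside and 57.8 inside, so that a step as large as that at the bounds was also seen within the arms. These windows describe the mean of 6 bounds, and no position of a step was tested.

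The peaks nearest to the bounds differed widely in enrichment and in the number of libraries that held them. At the left bound of chromosome III the nearest centre peak was chrIII:3720184-3723701, with a peak in 8 libraries and a median fold enrichment of 6.22, and the nearest arm peak chrIII:3717517-3717817 had 4.56 in 8 libraries. At the right bound of chromosome II the nearest centre peak, chrII:12005260-12006622, had a median of 7.50 in 8 libraries, and the nearest arm peak 2.75 in 2 libraries. Among the other 4 bounds the nearest centre peaks had medians of 4.68, 3.98, 4.49 and 4.16 and were found in 7, 5, 2 and 1 libraries.

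Other marks showed that sparse centres were not common to all peak lists. H3K36me3 was mapped only at 25°C, where its density was higher in the centres than in the arms in 4 of 4 libraries, with 149 to 154 peaks per Mb against 130 to 134. The ratio of centre to arm density was 1.15 for H3K36me3 and 0.386 for H3K36me2 in the libraries of that temperature, a log2 difference of −1.57 (exact two-sided permutation test of the mark labels within genotype, p = 0.0556, the smallest it can give, adjusted p = 0.111 over 2 comparisons). For H3K27me3 the ratio was 0.429 over 8 libraries and that of H3K36me2 0.416, a log2 difference of −0.05 (exact permutation test, p = 0.289). These 2 comparisons were added after the densities had been seen.

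**Figure D2:**
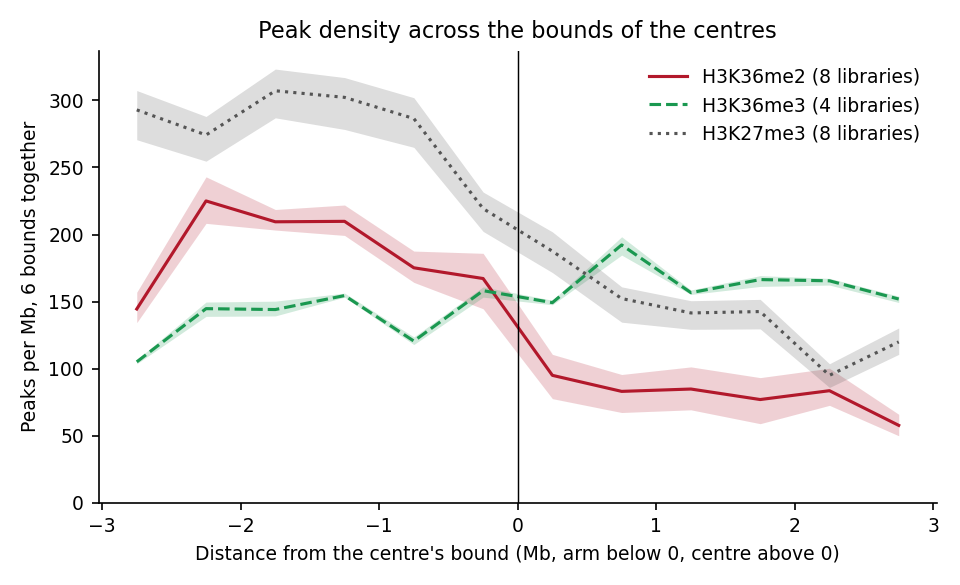
Peaks per Mb (y axis) in windows of 0.5 Mb against the distance from the bounds of the centres (x axis, arms below 0, centres above 0), as the mean (lines) and range (bands) over libraries for 3 marks. H3K36me2 drops from 167 to 95.0 across the bound, while the 4 H3K36me3 libraries go from between 153 and 161 to between 148 and 151.

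Within the centres, density varied between 1-Mb windows, and the richest and poorest of each chromosome did not overlap over libraries, while some neighbouring windows did. On chromosome II the second window held a mean of 32.6 peaks (23 to 41 over 8 libraries) and the seventh 125 (108 to 145). On chromosome III the second window was the richest with 141 (105 to 172) and the fourth the poorest with 83.8 (69 to 94). On chromosome V the windows held from 22.8 (13 to 36) in the second to 74.0 (60 to 86) in the ninth. Across the 23 windows the mean count of H3K36me2 peaks followed that of H3K36me3 (Spearman's rho = 0.83) and not that of H3K27me3 (rho = −0.21). This is a description over windows that share chromosomes, and within chromosomes the rho with H3K36me3 was 0.54 over 7 windows of II, 0.83 over 6 of III and 0.20 over 10 of V.

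Long parts of the centres had no H3K36me2 peak in any library. Stretches of 50 kb or longer without a peak numbered 115 and made up 43.9% of the centres, with 18.7% of the centre of chromosome III, 39.6% of II and 62.6% of V. The longest, chrV:7240879-7576015, spanned 335 kb and held 71 H3K27me3 regions over 8.52% of its length and 9 H3K36me3 regions over 1.63%. The next, chrV:16028813-16355897, spanned 327 kb and was 22.3% covered by 149 H3K27me3 regions and only 0.069% by 1 H3K36me3 region. Of the 6 longest, the one on chromosome II, chrII:9417196-9618365 with 201 kb, had more length in H3K36me3 (4.92%) than in H3K27me3 (4.36%). The other 5 lay on chromosome V and had more length in H3K27me3.

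Centre peaks stood more alone than arm peaks, in measures that depend on the density of peaks. Whether they were less clustered than their lower density implies was not tested. The lists are in narrowPeak format, so that number, width and gaps are those of called peaks. Whether neighbouring peaks belong to a single stretch of the mark was not tested. The median gap between neighbouring centre peaks was 1550 ± 183 bp, against 763 ± 26.5 bp in the arms (SD, n = 8). Joined across gaps under 2000 bp, the centre peaks formed 816 ± 75.6 runs of 2.18 peaks on average, and the arm peaks 985 ± 34.1 runs of 4.56. Peaks that formed a run of their own were 24.0% of centre peaks and 6.94% of arm peaks. The longest run of a library held 11 to 21 peaks in the centres and 61 to 67 in the arms.

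Centre peaks were also narrower. Their median width was 322 and 320 bp in N2 at 20°C, 327 and 324 in *jmjd-5(zr1234)* at 20°C, 323 and 321 in N2 at 25°C, and 315 in both *jmjd-5(zr1234)* libraries at 25°C. Arm peaks had medians of 392 to 420 bp in the same libraries, and the ranges did not overlap. The difference was −80.5 bp with an SD of 8 (exact sign-flip permutation test over 8 libraries, p = 0.0078, adjusted p = 0.0094). Peaks of 1000 bp or wider were 8.05 ± 0.71% of centre peaks and 12.2 ± 0.79% of arm peaks (SD, n = 8). The shortest peaks of all lists were 200 bp wide.

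Enrichment was lower in the centres by a smaller margin. The median fold enrichment of centre peaks was 4.07 and 4.13 in N2 at 20°C, 3.71 and 3.77 in *jmjd-5(zr1234)* at 20°C, 3.92 and 3.99 in N2 at 25°C, and 3.72 and 3.89 in *jmjd-5(zr1234)* at 25°C. Arm peaks had medians of 4.15 to 5.14, above the centre peaks in each library. The median log2 fold enrichment was 1.96 in centres and 2.20 in arms, a difference of −0.24 with an SD of 0.07 (exact sign-flip permutation test over 8 libraries, p = 0.0078, adjusted p = 0.0094). Of the 1000 strongest peaks of a library by −log10 p, 39 to 88 lay in the centres and 469 to 533 in the arms.

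Among the centre regions with a peak in all 8 libraries, the highest median fold enrichment was 10.8 at chrII:5681721-5682115. Its fold enrichment was 11.0 and 12.3 in N2 at 20°C, 9.81 and 10.6 in *jmjd-5(zr1234)* at 20°C, 11.8 and 11.0 in N2 at 25°C, and 7.09 and 7.93 in *jmjd-5(zr1234)* at 25°C. The libraries of the mutant at 25°C were the lowest there. The second, chrII:5680677-5681154 with a median of 9.74, lay 566 bp away, and the third was chrII:5365572-5365970 with 9.72. The widest region by median peak width was chrV:10605627-10609862, at 4198 bp, and it was weak, with fold enrichments between 2.03 and 2.72 in the 8 libraries. The next, chrII:4999454-5003616 at 4122 bp and chrIII:4172647-4176477 at 3516 bp, had medians of 6.05 and 6.65, so that width and enrichment did not go together in these 3.

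Centre peaks were found again in the other replicate of their group less often than arm peaks. The share was 84.0 ± 3.80% for centre peaks and 91.6 ± 1.70% for arm peaks (SD, n = 8), a difference of −7.63 percentage points that had the same sign in 8 of 8 libraries (exact sign-flip permutation test over 8 libraries, p = 0.0078, adjusted p = 0.0094). Strength accompanied this. Peaks with a −log10 p from 10 to 20 were 40.8% of centre peaks and 25.0% of arm peaks. Within that class the share found again was 68.2% in centres and 73.5% in arms, lower in centres in 7 of 8 libraries. In the class from 20 to 40 it was 92.3% and 95.3%, lower in 8 of 8, and from 80 upwards every peak was found again in both places. The smaller gaps within a class are descriptions from classes added after the shares had been seen.

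Merged over the 8 libraries, the centre peaks formed 2763 regions and the arm peaks 5388, of 15499 in the genome. Of the centre regions 902 had a peak in all 8 libraries (32.6%), against 55.6% of arm regions, and 475 had one in a single library (17.2%), against 9.00%. Regions of a single library were weak, with a median −log10 p of 14.4, and those of all 8 strong, with 31.7 and a median peak width of 436 bp.

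**Figure D3:**
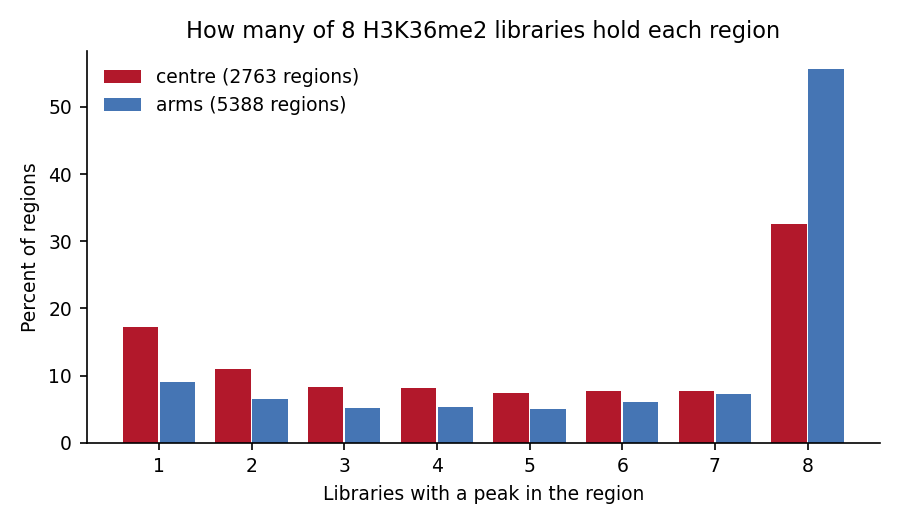
Percent of merged H3K36me2 regions (y axis) by the number of the 8 libraries with a peak in them (x axis), for centres and arms. Of the centre regions 32.6% had a peak in all 8 libraries, against 55.6% of arm regions.

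Less of the length of centre peaks than of arm peaks lay in the repressive mark H3K27me3. H3K27me3 peaks were themselves sparser in the centres, with a ratio of centre to arm density of 0.429. The shares were not adjusted for this. The length of centre peaks inside H3K27me3 peaks of the same group was 2.60% on average and that of arm peaks 3.79%, lower in 8 of 8 libraries (exact sign-flip permutation test over 8 libraries, p = 0.0078, adjusted p = 0.0094). This call was lost and the difference turned to 0.11 percentage points when peaks under a −log10 p of 20 were left out (exact permutation test, p = 0.641). The share inside H3K36me3 peaks at 25°C was 34.4 and 36.3% for N2 and 35.2 and 36.7% for *jmjd-5(zr1234)* in the centres, and 42.9 to 45.0% in the arms. The difference was −8.20 percentage points in 4 of 4 libraries (exact sign-flip permutation test over 4 libraries, p = 0.125, the smallest it can give). Thus H3K36me3 was denser in the centres, yet a smaller share of the H3K36me2 peak length there lay inside it. Both H3K36me2 libraries of a group were set against the same regions of the other mark, whose own spread does not enter these tests.

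Between the strains, the number and share of centre peaks overlapped. N2 had 2048 and 2085 centre peaks at 20°C and *jmjd-5(zr1234)* 1837 and 2069. At 25°C they had 1546 and 1621, and 1487 and 1618. The ranges overlapped at both temperatures, and the mean difference of −72.3 peaks had a p of 0.333 (exact two-sided permutation test of the strain labels within temperature, adjusted p = 0.444 over 8 comparisons). Of the peaks on the 3 chromosomes, the share in centres was 28.2% in the mutant and 28.6% in N2 (exact permutation test, p = 0.444, adjusted p = 0.508). The smallest p this exact permutation test can give with 2 libraries per group is 0.0556, so that no comparison of library values made with it could pass 0.05.

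The enrichment of centre peaks relative to arm peaks was slightly less negative in the mutant. The log2 gap between the medians was −0.311 and −0.314 in N2 and −0.274 and −0.282 in *jmjd-5(zr1234)* at 20°C, and −0.180 and −0.184 in N2 and −0.156 and −0.179 in the mutant at 25°C. The libraries did not overlap at either temperature, but the difference was only 0.02 (exact permutation test, p = 0.0556, adjusted p = 0.111). Restricted to the regions with a peak in all 8 libraries, the difference was also 0.02 (exact permutation test, p = 0.111, adjusted p = 0.111 over 2 comparisons).

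Most centre regions were found in both strains. Of the regions with a peak in both replicates of at least 1 strain at 20°C, 1363 were found in both strains, 354 only in N2 and 223 only in *jmjd-5(zr1234)*. Of all 1940 such regions 70.3% were thus shared at 20°C (95% Wilson interval 68.2 to 72.3%, which covers counting error only), and of 1498 at 25°C 67.5% (65.1 to 69.8%). In the arms the shares were 82.9% and 78.8%. Only 10 centre regions had a peak in all 4 N2 libraries and none of the mutant, 0.362% of centre regions against a background of 0.284% of all regions, and 10 had the reverse, against a background of 0.277%. These counts are near the background and rose to between 23 and 42 in all, from 20, when 1 library was left out. Leaving out a library removes a condition of the definition, so that the count can hardly fall. It exceeded 1.5 times the full count without either *jmjd-5(zr1234)* library at 20°C (31 and 39), without N2 replicate 1 at 20°C (33) and without N2 replicate 1 at 25°C (42).

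As a set, the regions private to a strain were weak by −log10 p. By −log10 p the strongest in N2 was chrIII:7469401-7470027, with fold enrichments of 4.07 and 4.03 at 20°C and 3.82 and 4.94 at 25°C. In *jmjd-5(zr1234)* it was chrV:11557132-11557403, with 3.75 and 4.04 at 20°C and 4.58 and 4.27 at 25°C. The median −log10 p of the private regions was 15.7 in N2 and 16.7 in the mutant, not far above the limit of 10 below which peaks are not listed. Over all centre peaks of a library the median was 21.5 to 23.7. The strongest regions named here were not weak by fold enrichment, since the median of all centre peaks was 3.71 to 4.13 over the libraries.

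At the 902 centre regions with a peak in all 8 libraries, log2 fold enrichment relative to the median of its library was compared with limma, in one fit over 7275 regions of the genome. Between the strains 40 centre regions were higher in *jmjd-5(zr1234)* (4.43%) and 51 lower (5.65%), against backgrounds of 4.88% higher and 5.83% lower over all regions (adjusted p under 0.05). The shares in the centres were thus near those of the genome. The split depends on the scaling, since without it the medians of all regions differed by −0.12 between the strains and the calls became 10 higher and 144 lower. Leaving out any library but N2 replicate 1 at 25°C lowered the 91 calls to between 41 and 52. With that library left out there were 79.

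The strain difference was clearest at a few regions. These were picked by smallest p, a choice that favours a lack of overlap between the strains. At chrII:7676019-7676955 the fold enrichment was 6.53 and 6.19 in N2 and 3.48 and 3.59 in *jmjd-5(zr1234)* at 20°C, and 4.22 and 5.08 in N2 and 2.58 and 2.64 in the mutant at 25°C. All 4 mutant libraries lay below all 4 N2 libraries (log2 difference −0.72, SE 0.10, limma adjusted p = 0.000847). At chrIII:4867579-4868832 the values were 7.37 and 7.94 against 4.48 and 4.70 at 20°C, and 6.88 and 8.41 against 4.17 and 4.96 at 25°C, again with no overlap (−0.62, SE 0.09, limma adjusted p = 0.00124). At chrII:5406476-5407134 they were 5.34 and 5.24 against 3.75 and 4.08, and 5.36 and 5.90 against 2.96 and 3.11 (−0.54, SE 0.09, limma adjusted p = 0.00302). All 3 regions with the smallest p were lower in the mutant, relative to the other peaks of its libraries.

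Growth at 25°C went with fewer centre peaks. The 4 libraries at 25°C held 1487 to 1621 centre peaks and the 4 at 20°C 1837 to 2085, without overlap, and the mean fell by 22.0%, from 2010 to 1568 (exact two-sided permutation test of the temperature labels within strain, p = 0.0556, the smallest it can give, adjusted p = 0.111). The share of centre peaks fell from 29.8 ± 0.74% to 26.9 ± 0.69% (SD, n = 4 libraries each, exact permutation test, p = 0.0556, adjusted p = 0.111). By chromosome the share was 27.8 to 29.0% at 20°C and 24.4 to 25.9% at 25°C on III, without overlap. On II the mean share fell from 30.6 to 28.2%, and on V from 31.4 to 28.8%. The ranges of II and V overlapped over both strains, but within a strain only those of *jmjd-5(zr1234)* on V did.

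The lists were shorter at 25°C, and the fall was smaller in lists of equal length. With only the 10000 strongest peaks of each library, the centres held 1390 to 1470 peaks at 20°C and 1371 to 1428 at 25°C. These ranges over both strains overlapped. Within N2 they did not, with 1437 and 1470 peaks at 20°C and 1402 and 1428 at 25°C. The mutant had 1390 and 1420 against 1371 and 1423. The difference became −23.3 peaks, and that of the share −0.40 percentage points (exact permutation test, p = 0.222 for both, adjusted p = 0.254). The same held for regions private to a temperature. Of these, 55 centre regions had a peak in all 4 libraries at 20°C and none at 25°C, 1.99% of centre regions against a background of 1.62%, and 5 had the reverse, against 0.129%. With lists of equal length they numbered 20 and 18, with no background over all regions to set them against. The count of 60 rose to 97 without N2 replicate 2 at 25°C, to 114 without *jmjd-5(zr1234)* replicate 1 at 20°C and to 93 without *jmjd-5(zr1234)* replicate 2 at 25°C. This count too can hardly fall when a library is left out.

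Examples of private regions showed modest values on both sides. The strongest at 20°C, chrV:7804106-7804828, had fold enrichments of 3.77 and 4.31 in N2 and 4.19 and 4.07 in *jmjd-5(zr1234)*. The strongest at 25°C, chrV:10736299-10736555, had 3.72 and 3.10 in N2 and 5.12 and 4.91 in the mutant. Of the centre regions found in both replicates of N2 at 20°C, 66.0% were also found at 25°C, and of those at 25°C 90.0% were found at 20°C. In the arms of N2 these shares were 80.8% and 96.1%, and over the genome 77.2% and 94.3%. In *jmjd-5(zr1234)* they were 67.1% and 88.1% in the centres, 79.7% and 94.7% in the arms and 76.4% and 93.2% over the genome.

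Relative to arm peaks, the enrichment of centre peaks was higher at 25°C. The log2 gap between the medians narrowed from −0.30 ± 0.02 at 20°C to −0.18 ± 0.01 at 25°C (SD, n = 4 libraries each, exact permutation test, p = 0.0556, adjusted p = 0.111), without overlap between the temperatures in either strain. The median of the centre peaks themselves was 1.97 at 20°C and 1.96 at 25°C, and that of the arm peaks 2.26 and 2.13. The gap narrowed by 0.10 with the 10000 strongest peaks of each library and by 0.14 in the regions with a peak in all 8 libraries (exact permutation test, p = 0.0556 for both).

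In limma's fit 166 of the 902 centre regions were higher at 25°C (18.4%) and 49 lower (5.43%), against backgrounds of 10.5% higher and 9.61% lower over all regions, and 7.78% higher and 11.0% lower in the arms. The median log2 difference was 0.10 over the centre regions, 0.01 over all regions tested and −0.02 over the arm regions. Without scaling, the medians of all regions differed by −0.20 and the calls became 44 higher and 213 lower, so that "higher" means relative to the other peaks of a library. The count of 215 was lowest, at 143, without *jmjd-5(zr1234)* replicate 1 at 25°C. Only regions listed in all 8 libraries entered, and the other centre regions did not.

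The excess of higher centre regions was seen at each level of enrichment. With all regions of the genome divided into 3 equal classes by mean fold enrichment, 16.3% of the 424 centre regions in the lowest class, 22.4% of 312 in the middle and 16.3% of 166 in the highest were higher at 25°C. In the arms the shares were 9.33%, 8.15% and 6.29%. The median log2 difference was 0.09, 0.13 and 0.09 in the centres and between −0.04 and 0.00 in the arms. These classes were added after the result was seen and carry no test.

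**Figure D4:**
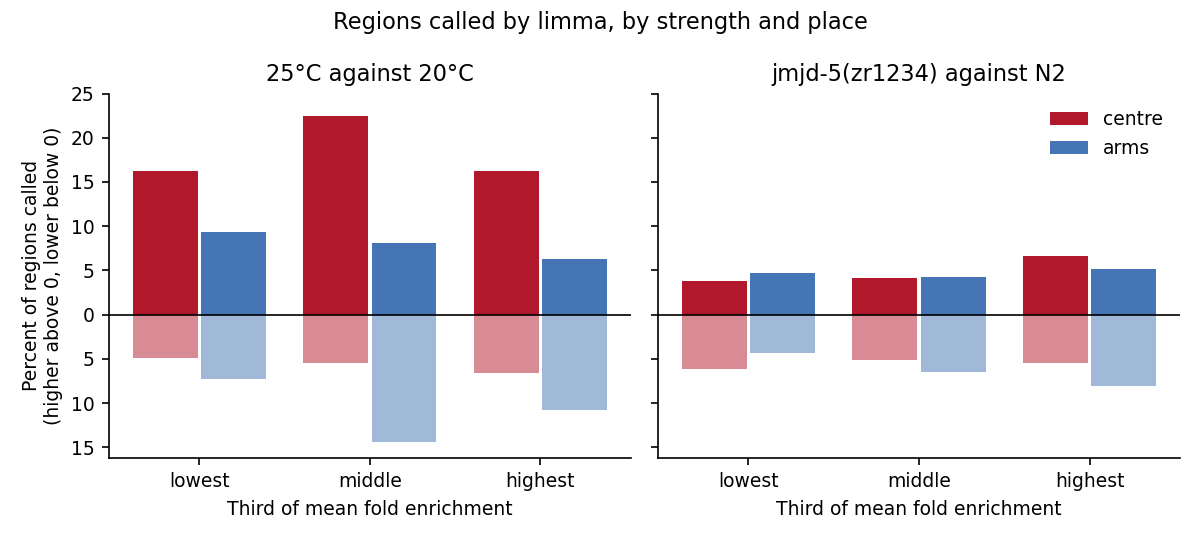
Percent of regions called higher (above 0) or lower (below 0) by limma at an adjusted p under 0.05 (y axis), in 3 equal classes of mean fold enrichment (x axis), in centres and arms. For 25°C against 20°C the centre regions called higher are 16.3, 22.4 and 16.3% from the lowest to the highest class, against 9.33, 8.15 and 6.29% of arm regions.

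The clearest temperature differences among centre regions were increases. The regions named were picked by smallest p, a choice that favours a lack of overlap between the temperatures. At chrIII:4904017-4904343 the fold enrichment was 2.66 and 3.37 in N2 and 3.88 and 4.00 in *jmjd-5(zr1234)* at 20°C, and 6.92 and 7.24 in N2 and 8.08 and 6.51 in the mutant at 25°C. All 4 libraries at 25°C lay above all 4 at 20°C (log2 difference 1.27, SE 0.11, limma adjusted p = 1.2e-05). At chrII:7134770-7135083 the values were 3.01 to 4.10 at 20°C and 5.24 to 7.14 at 25°C (0.99, SE 0.11, limma adjusted p = 9.8e-05). At chrIII:4431135-4432529 they were 2.84 to 3.74 at 20°C and 4.87 to 6.84 at 25°C (0.91, SE 0.11, limma adjusted p = 0.000163). The groups did not overlap at either region.

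**Figure D5:**
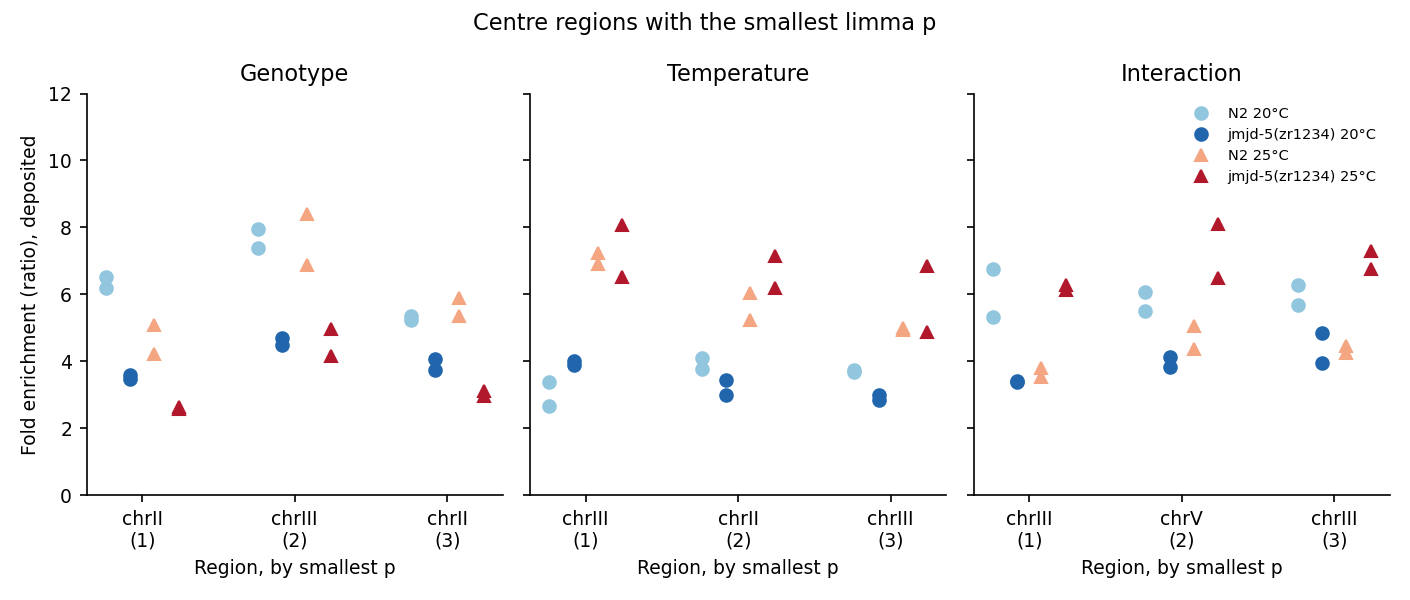
Deposited fold enrichment (y axis, a ratio) in each of the 8 libraries at the 3 centre regions with the smallest limma p for strain, temperature and their interaction (x axis, numbered in that order). Points are single libraries, and at the first temperature region those at 25°C reach 8.08 while the highest at 20°C is 4.00.

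Whether the strain difference depended on temperature was tested in the same fit. The interaction was positive at 32 centre regions (3.55%) and negative at 27 (2.99%), against backgrounds of 3.24% and 3.01%. The shares in the centres were again near those of the genome. Without scaling the split became 43 positive and 12 negative. Leaving out any library but N2 replicate 2 at 25°C lowered the 59 calls to between 16 and 36, and with that library left out there were 43.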

How the data were processed

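The authors aligned ChIP reads with Bowtie to the worm (ce10 per the processing notes) and *Drosophila* genomes, removed multimapping reads and duplicates, and called peaks per library with MACS2. Versions are not given in the sources used here. The deposited lists hold a fold enrichment ratio and a −log10 p-value per peak, start at a −log10 p of 10, and are not scaled to the spike-in. RNA tables were not used.

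Peaks were placed by midpoint, with arms reaching to the last base of any peak. Regions are peaks merged at an overlap of 1 bp. Group values were compared by exact permutation within strata, and centres with arms by exact sign flips, with Benjamini-Hochberg adjustment over 8 and 6 comparisons. Log2 fold enrichment, centred on the median of each library, was fitted with limma 3.58.1 in R 4.3.3 (trend, adjusted p under 0.05). Python 3.11.15, NumPy 2.4.6 and pandas 2.3.3 were used. Procedures were tested on simulated data. Named regions were those of highest enrichment, width and smallest p, nearest to the bounds, and the strongest private to a group. Alternatives were other peak limits, overlaps, bounds and scalings, a replicate block and leaving out each library. The members and comparisons were chosen with earlier results of these data known.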

Additional observations from a re-analysis of the deposited data

Results flagged for a closer look

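The strain difference differed between the temperatures at 59 centre regions by limma's interaction term, positive at 32 and negative at 27. The 3 with the smallest p were picked after their values were seen. At chrIII:8792848-8793175 the fold enrichment was 6.75 and 5.31 in N2 and 3.40 and 3.41 in *jmjd-5(zr1234)* at 20°C, and 3.54 and 3.80 in N2 and 6.14 and 6.28 in the mutant at 25°C, so that the order of the strains turned (log2 interaction 1.47, SE 0.21, limma adjusted p = 0.00233). At chrV:10734111-10734499 it was 5.51 and 6.08 against 3.83 and 4.13 at 20°C, and 4.36 and 5.05 against 6.49 and 8.10 at 25°C (1.06, SE 0.19, limma adjusted p = 0.00677). The region private to 25°C at chrV:10736299-10736555 lay 1799 bp from it. At chrIII:3725104-3725736 the values were 6.28 and 5.69 against 3.95 and 4.85, and 4.47 and 4.26 against 6.77 and 7.31 (1.04, SE 0.19, limma adjusted p = 0.00725).

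The median width of centre peaks was 4.5 bp larger in the mutant at 20°C and differed by −7 bp at 25°C, without overlap of the libraries at either temperature. The difference between the temperatures had a p of 0.0556, the smallest an exact permutation test can give here (adjusted p = 0.167 over 6 measures).

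The share of centre peak length inside H3K27me3 peaks differed by −0.61 percentage points between mutant and N2 at 20°C and by 0.38 at 25°C, also without overlap (exact permutation test of the difference, p = 0.0556, adjusted p = 0.167). Both H3K36me2 libraries of a group were set against the same H3K27me3 regions, those found in both H3K27me3 libraries. The spread between H3K27me3 libraries therefore enters neither the ranges nor the p-value. The shares were 3.27 and 3.28% in N2 and 2.79 and 2.55% in the mutant at 20°C, and 2.02 and 2.03% against 2.41 and 2.41% at 25°C. The H3K27me3 lists of the same groups held 126, 131, 116 and 129 peaks per Mb of centre, in the order N2 and mutant at 20°C, then N2 and mutant at 25°C, and their part in the result was not tested.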

How the results depend on the processing

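The lower density, width and enrichment of centre peaks and their lower share found in the other replicate kept direction and call under all 12 alternatives tried for each (density from −103 to −88.3 peaks per Mb). No alternative moved a comparison of library values between groups past 0.05, which the exact permutation test cannot reach with 2 libraries per group. With peaks under a −log10 p of 20 left out, the width difference turned to 4.13 bp for strain and 13.6 bp for temperature, and the H3K27me3 share to 0.11 percentage points. In the same lists the regions private to a strain numbered 9, the shares of regions in both strains were 64.8% at 20°C and 64.9% at 25°C, that at both temperatures in the mutant 57.8%, and the limma calls 47 for strain, 135 for temperature and 39 for the interaction, of 495 regions tested. With the 10000 strongest peaks the regions private to a temperature numbered 38, and the shares were 67.6% and 64.9% in both strains and 64.7% at both temperatures in N2. Without scaling there were 154 strain calls, and at an adjusted p under 0.1 there were 159 strain and 102 interaction calls. Counts under the alternatives are of centre regions alone, and no background over all regions is given beside them. The causes were not tested.

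Leaving out 1 library gave 23 to 42 regions private to a strain and 74 to 114 private to a temperature, counts that can hardly fall with fewer libraries. The shares in both strains were 66.1 to 70.3% at 20°C and 62.6 to 67.5% at 25°C, those at both temperatures 55.7 to 66.1% in N2 and 54.3 to 65.9% in the mutant. Limma called 41 to 79 regions for strain, 143 to 183 for temperature and 16 to 43 for the interaction, where the lone library of a group was taken to vary like the others. The strain difference in peak number ran from −130 to −14.3. Replicate numbers did not pair the samples, as deviations of same-numbered libraries correlated by only 0.022 to 0.057. With a replicate block limma made 92, 219 and 62 calls, and the exact tests of groups had a smallest p of 0.125. The comparisons of centres with arms are within libraries and took no block. Read depth is not given in the lists, so that weak peaks near the limit of 10 cannot be separated from missed ones.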
